A study of Homo sapiens with 6 samples.

Results

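miR-191 and miR-425 are 2 neighbouring human microRNAs (miRNAs) whose precursor hairpins lie within the gene DALRD3 on chromosome 3. Each hairpin gives a 5p and a 3p arm, and the 4 arms, hsa-miR-191-5p, hsa-miR-191-3p, hsa-miR-425-5p and hsa-miR-425-3p (below without the prefix for human), were taken by name from the 1000 mature miRNAs in the count table. All 4 were detected in every library and entered the test. Small RNA was sequenced from HEK 293T, an immortalized line of human embryonic kidney origin, in 3 biological replicates of wild type cells and 3 of ΔTUT4/7 cells, which carry a double knockout of the uridylyltransferases TENT3A and TENT3B (TUT4 and TUT7). All 6 libraries came from untreated HEK 293T cells grown in the same medium. The study obtained HEK 293T cells from the American Type Culture Collection. The knockout is a single, earlier published cell line that was given to the study by another group. Whether it was made from the same wild type stock is not stated. Effects of the knockout therefore cannot be told apart from other differences between this line and the wild type cells.

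TUT4 and TUT7 add untemplated uridines to the 3′ ends of RNAs. A tail of several uridines marks a precursor such as pre-let-7 for decay, whereas a single uridine restores the 3′ overhang of group II precursors, which leave Drosha with a 1-nt overhang, so that Dicer can cut them. Precursors with a 2-nt overhang are called group I. From each precursor, Dicer releases a duplex of both arms, of which usually one is loaded into an Argonaute protein and persists while the other is degraded. The host gene, DALRD3, encodes a protein that takes part in the methylation of certain tRNAs. miR-191 and miR-425 have both been described as raised in many tumours, and miR-191 is often chosen as a reference for miRNA measurements because its level varies little between many tissues.

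The seed, bases 2 to 8 of a mature miRNA, is the stretch that chiefly pairs with target mRNAs. The mature sequences below, from RefSeq (GRCh38.p14, in which 3 of the 4 names were matched), show the seed in capitals and make plain that these arms do not share a seed.
miR-191-5p: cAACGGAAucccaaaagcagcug
miR-191-3p: gCUGCGCUuggauuucgucccc
miR-425-3p: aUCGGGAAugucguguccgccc
No other miRNA in the count table has the seed of any of the 4 arms, nor the same first 18 nt, the length to which the reads were trimmed before alignment. Reads of these arms were therefore not divided with another listed miRNA of identical trimmed sequence. The MIR191 hairpin from the same source, on the minus strand at chr3:49020618-49020709, is shown with both arms in capitals, since the arms changed unequally.
MIR191: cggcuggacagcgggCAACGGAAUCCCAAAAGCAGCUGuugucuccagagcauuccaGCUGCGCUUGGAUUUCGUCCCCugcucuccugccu

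On hg38, both hairpins lie on the minus strand of chromosome 3, MIR191 (92 nt) upstream of MIR425 (87 nt, chr3:49020148-49020234), with 383 bases between them. The mature arms lie at chr3:49020672-49020694 (miR-191-5p), chr3:49020631-49020652 (miR-191-3p), chr3:49020199-49020221 (miR-425-5p) and chr3:49020159-49020180 (miR-425-3p). In GENCODE release 44, both hairpins fall in intron 1 of 4 long DALRD3 transcripts (DALRD3-201, DALRD3-205, DALRD3-212 and DALRD3-213). The canonical transcript, DALRD3-202, starts downstream of both, 2038 bases from MIR191 and 1568 bases from MIR425. MIR191 also lies opposite intron 1 of a transcript of NDUFAF3, a mitochondrial complex I assembly factor encoded on the other strand.

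**Figure D1:**
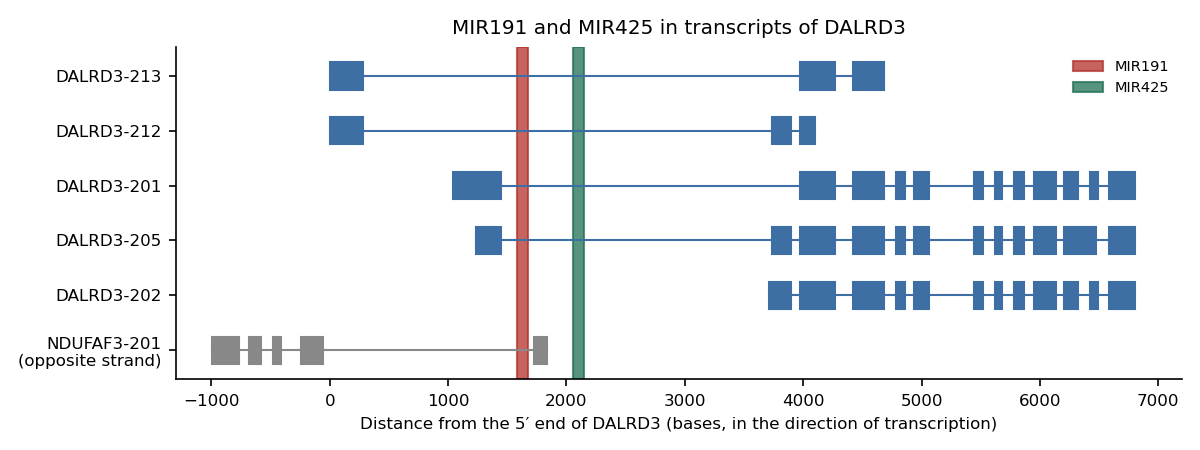
Map of the start of DALRD3, with the distance in bases from its 5′ end on the horizontal axis and transcripts as rows (boxes, exons, and lines, introns). The bands of MIR191 and MIR425 cross the first intron of 4 DALRD3 transcripts and lie upstream of DALRD3-202, and NDUFAF3-201 runs on the opposite strand.

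RNAfold predicted a minimum free energy of -46.8 kcal/mol for the MIR191 hairpin and of -34.5 kcal/mol for MIR425. In the predicted MIR191 structure, 18 of 23 bases of the 5p arm and 18 of 22 bases of the 3p arm were paired. In MIR425 these were 14 of 23 and 18 of 22 bases. The annotated arms of both hairpins left a 3′ overhang of 2 nt in the predicted structures, and neither hairpin is among those the study lists as group II. From earlier work, the study's introduction names mature miR-191 among the miRNAs that TUT4 and TUT7 tail with a single uridine. The 5p arms have GC contents of 52.2% (miR-191) and 47.8% (miR-425), and both 3p arms have 63.6%.

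The libraries held 4338558 to 7967606 counts on mature miRNAs, and levels are given per 1000000 of these (CPM). Members of let-7, counted with miR-98, made up 19.2% to 19.7% of a ΔTUT4/7 library but 5.57% to 6.36% of a wild type one, which affects the CPM of every other miRNA. Together the 4 arms took 1.57% to 1.69% of the counts of each ΔTUT4/7 library and 1.56% to 1.75% of each wild type library, so that the ranges overlapped. TUT4 and TUT7 are not measured by miRNA counts, and the strain labels were not checked with them. Of 12 markers of other cell types (liver, muscle, blood, neuron, endocrine and stratified epithelium), 6 were listed, summing to 137 to 147 CPM in ΔTUT4/7 and 145 to 189 CPM in wild type libraries. Only the blood cell marker miR-142-3p and the endocrine marker miR-375-3p exceeded 10 CPM. miR-142-3p was at 36.3, 32.9 and 30.9 CPM in ΔTUT4/7 replicates 1, 2 and 3 and at 61.6, 49.5 and 96.3 CPM in wild type replicates 1, 2 and 3, and its partner arm miR-142-5p was at 1.38 to 1.87 and 2.76 to 5.76 CPM. Both were lower in every ΔTUT4/7 library than in any wild type library. miR-375-3p overlapped between the strains, at 98.0 to 110 CPM in ΔTUT4/7 and 83.9 to 101 CPM in wild type libraries. The part of other cells in the results was not tested.

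The abundant arm of miR-191 did not pass the test between the strains, whereas its rare 3p arm was higher in ΔTUT4/7 cells. In miR-425 it was the abundant 5p arm that was higher, while the 3p arm did not pass. Thus 2 of the 4 arms were higher at an adjusted p under 0.05 and none was lower, against backgrounds of 23.2% of the 826 miRNAs tested that were higher and 21.9% that were lower, 45.2% in all. None of the 4 reached the 2-fold limit that the study adds, which 16.5% of the tested miRNAs passed upward and 13.6% downward. In 2 of the 4 arms the strains did not overlap, both times with ΔTUT4/7 libraries higher, compared with 28.8% of the tested miRNAs without overlap in that direction, 29.5% in the other and 58.4% in either. As fewer cells with a miRNA and less of it per cell give the same count, these values cannot tell both cases apart.

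hsa-miR-191-5p, the dominant product of its hairpin, was at 11850, 12867 and 13043 CPM in ΔTUT4/7 replicates 1, 2 and 3, and at 12592, 14928 and 13465 CPM in wild type replicates 1, 2 and 3. The strains overlapped, with the lowest value in a ΔTUT4/7 library and the highest in a wild type library, and the arm ranked between 17th and 21st in every library. The mean was 12586 ± 644 CPM (SD, n = 3) in ΔTUT4/7, against 13662 ± 1181 CPM (SD, n = 3) for wild type. Its log2 fold change (ΔTUT4/7 over wild type) was -0.12 ± 0.11 (SE), with a 95% confidence interval from -0.36 to 0.13 and an adjusted p of 0.408 (edgeR quasi-likelihood test, Benjamini-Hochberg adjustment over 826 miRNAs). The interval spans 0.778-fold to 1.09-fold, so that a 2-fold change in either direction lies outside it. With all let-7 and miR-98 counts left out of the totals, the log2 fold change turned to 0.10 and still did not pass. With totals that omit miR-16-5p it was -0.26, which did not pass either (edgeR, adjusted p = 0.0902).

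hsa-miR-191-3p, the rarer arm, was at 195, 214 and 200 CPM in ΔTUT4/7 replicates 1, 2 and 3. In wild type replicates 1, 2 and 3 it was at 121, 125 and 166 CPM. Every ΔTUT4/7 library was above every wild type library, and wild type replicate 3 lay nearest to them. The means were 203 ± 9.72 CPM and 137 ± 24.8 CPM (SD, n = 3 each). The arm was 1.48-fold higher in ΔTUT4/7 cells, a log2 fold change of 0.56 ± 0.17 (SE, 95% confidence interval 0.19 to 0.94) with an adjusted p of 0.0186 (edgeR, Benjamini-Hochberg). The call was lost without ΔTUT4/7 replicate 2 (log2 fold change 0.52), wild type replicate 1 (0.48) or wild type replicate 2 (0.50), with totals that omit miR-16-5p (0.43) and with the GC trend of each library removed (0.34).

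hsa-miR-425-5p, the dominant arm of the neighbouring hairpin, was at 3454, 3490 and 3540 CPM in ΔTUT4/7 replicates 1, 2 and 3, a close group. The wild type libraries were spread out, with 3266, 2278 and 1793 CPM in replicates 1, 2 and 3. All 3 were below the ΔTUT4/7 libraries, but replicate 1 was near to them. The exact 95% binomial intervals, 3213 to 3320, 2245 to 2311 and 1753 to 1833 CPM, did not touch, so that the wild type spread was larger than counting error, which is all that such intervals cover. The means were 3495 ± 43.1 CPM and 2446 ± 751 CPM (SD, n = 3 each), giving a coefficient of variation of 1.23% in ΔTUT4/7 and 30.7% in wild type cells. The arm was 1.43-fold higher, with a log2 fold change of 0.52 ± 0.19 (SE, 95% confidence interval 0.11 to 0.92) and an adjusted p of 0.0408 (edgeR, Benjamini-Hochberg).

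This call for miR-425-5p rested on every library but one. Without wild type replicate 1 the log2 fold change was 0.78 and passed, whereas the call was lost without ΔTUT4/7 replicate 1 (0.52), 2 (0.52) or 3 (0.51) and without wild type replicate 2 (0.47) or 3 (0.33). It was also lost with DESeq2 (0.47) and with totals that omit miR-16-5p (0.38).

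hsa-miR-425-3p was the most even of the 4 arms, with a coefficient of variation of 4.70% over the 6 libraries. It was at 154, 141 and 147 CPM in ΔTUT4/7 replicates 1, 2 and 3 and at 158, 156 and 144 CPM in wild type replicates 1, 2 and 3. The strains overlapped, with means of 147 ± 6.78 and 153 ± 7.57 CPM (SD, n = 3 each). The log2 fold change was -0.051 ± 0.15 (SE), with a 95% confidence interval from -0.38 to 0.28 and an adjusted p of 0.807 (edgeR, Benjamini-Hochberg). It turned to 0.17 with let-7 and miR-98 left out of the totals and to 0.066 with libraries scaled to miR-191-5p, and passed under neither. The number of counts behind each value of the 4 arms ran from 535 to 118944.

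**Figure D2:**
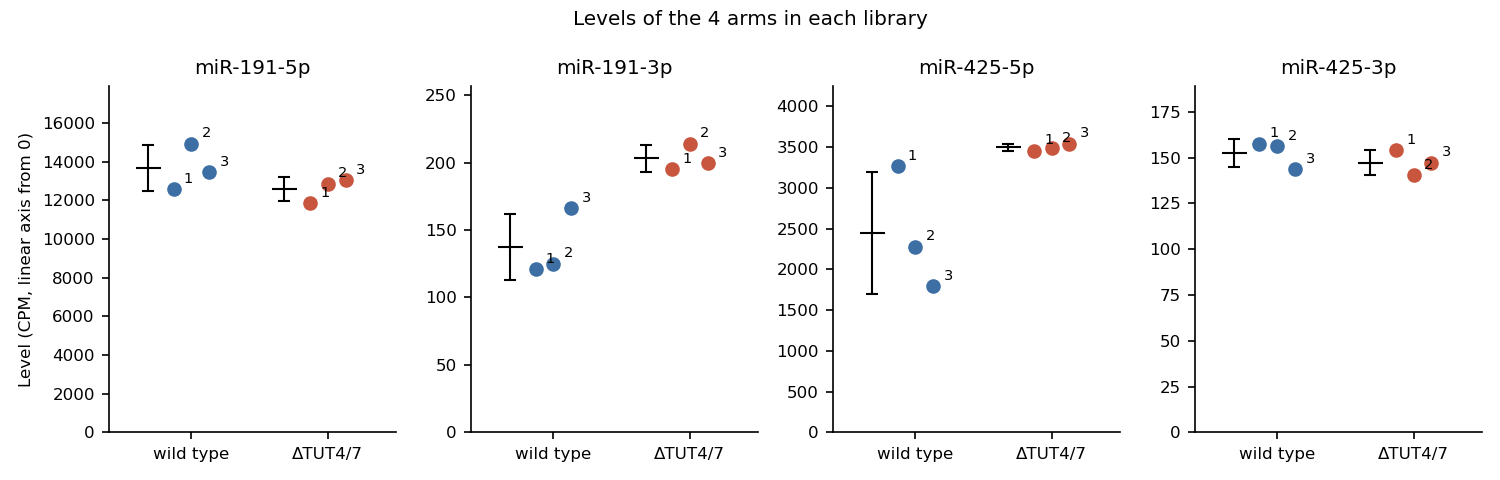
CPM of each arm (vertical axes from 0) in the 3 wild type and 3 ΔTUT4/7 libraries, numbered by replicate, with the mean and SD as bars. The strains are apart for miR-191-3p and miR-425-5p, and the wild type replicates of miR-425-5p spread from 1793 to 3266 CPM while those of ΔTUT4/7 lie between 3454 and 3540 CPM.

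**Figure D3:**
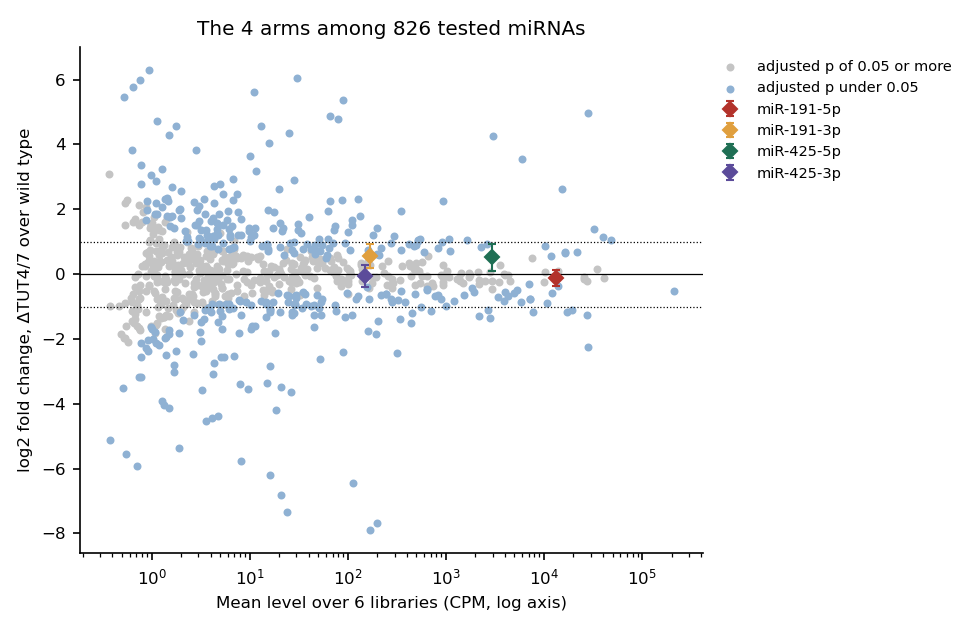
log2 fold change of the 826 tested miRNAs against their mean CPM (log axis), with the 4 arms as diamonds with 95% confidence intervals and dotted lines at 2-fold. The arms lie between -0.12 and 0.56, inside the 2-fold lines, whereas tested miRNAs reach from -7.90 to 6.30.

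The median size of the log2 fold change was 0.32 over the 4 arms and 0.77 over all tested miRNAs, while the medians with sign were 0.23 and 0.013. Over the 79 miRNAs with a mean above 1000 CPM, where both 5p arms lie, the median size was 0.515.

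Ratios between arms within a library do not depend on how the libraries are scaled. They can depend on a library's GC trend, as the 5p and 3p arms differ in GC content, and no ratio was fitted with it removed. For single arms with that trend removed, the log2 fold changes were -0.20 (5p) and 0.34 (3p) for miR-191. For miR-425 they were 0.57 (5p) and -0.27 (3p). miR-191 moved towards its 3p arm in ΔTUT4/7 cells and miR-425 towards its 5p arm, although only the first passed the test. For miR-191, the 5p arm had 60.7, 60.1 and 65.3 times the counts of the 3p arm in ΔTUT4/7 replicates 1, 2 and 3, and 104, 119 and 81.1 times in wild type replicates 1, 2 and 3. The strains did not overlap, and the 3p share of the hairpin's counts was 1.51% to 1.64% in ΔTUT4/7 and 0.831% to 1.22% in wild type libraries. The log2 ratio fell by 0.69 ± 0.20 (SE, 95% confidence interval -1.14 to -0.25), with an adjusted p of 0.0412 (limma, Benjamini-Hochberg over 200 hairpins with both arms). At that threshold, 15.5% of the 200 hairpins changed, 6.0% towards 3p and 9.5% towards 5p, and the change of miR-191 ranked 76th in size.

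The call for the miR-191 arm ratio was kept without wild type replicate 3 (-0.84), but lost without ΔTUT4/7 replicate 1 (-0.68), 2 (-0.67) or 3 (-0.73) and without wild type replicate 1 (-0.67) or 2 (-0.57). It was also lost when limma was run without its trend. With 3 libraries in each strain an exact permutation test cannot give a p below 0.1 (2-sided), the value that all 4 ratios described here reached. The 4 ratios are built from the same 4 arms and are not independent of one another. The share of all hairpins or adjacent pairs whose ratios did not overlap between the strains was not counted.

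For miR-425, the 5p arm had 22.4, 24.8 and 24.1 times the counts of the 3p arm in ΔTUT4/7 replicates 1, 2 and 3, against 20.7, 14.6 and 12.5 times in wild type replicates 1, 2 and 3. The strains were apart, but wild type replicate 1 was again close to the ΔTUT4/7 libraries. The 3p share was 3.87% to 4.27% in ΔTUT4/7 and 4.60% to 7.43% in wild type libraries. The log2 ratio was higher by 0.61 ± 0.22 (SE, 95% confidence interval 0.12 to 1.10), which did not pass (limma, adjusted p = 0.0856 over 200 hairpins) and ranked 90th in size, near the middle of all hairpins, whose median size was 0.54. Without wild type replicate 1 the difference was 0.82 and passed.

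Between the hairpins, miR-191-5p had 3.43, 3.69 and 3.68 times the counts of miR-425-5p in ΔTUT4/7 replicates 1, 2 and 3. In wild type replicates 1, 2 and 3 the ratio was 3.86, 6.55 and 7.51. Wild type replicate 1 lay close to the knockout libraries and replicates 2 and 3 far above. The log2 ratio was lower by 0.68 in ΔTUT4/7 cells, written as -0.68 ± 0.23 (SE, 95% confidence interval -1.18 to -0.17), with an adjusted p of 0.0542 (limma, Benjamini-Hochberg over 71 adjacent hairpin pairs within 10 kb), and did not pass. Of the 71 pairs, 23.9% passed, and this pair ranked 25th in size where the median was 0.47. It passed without wild type replicate 1 (-0.96) and with a pseudocount of 5 in place of 0.5 (-0.68).

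The 3p arms of the hairpins were near one another in level, and their order was not the same in all libraries. miR-191-3p had 1.27, 1.52 and 1.36 times the counts of miR-425-3p in ΔTUT4/7 replicates 1, 2 and 3, so that it was the more frequent in all of them. In wild type replicates 1 and 2 it was the less frequent, at 0.770 and 0.801 times, and in replicate 3 it was at 1.15 times. The mean log2 ratio was 0.63 higher in ΔTUT4/7 cells, without overlap between the strains, and no fit across hairpins was made for this ratio.

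**Figure D4:**
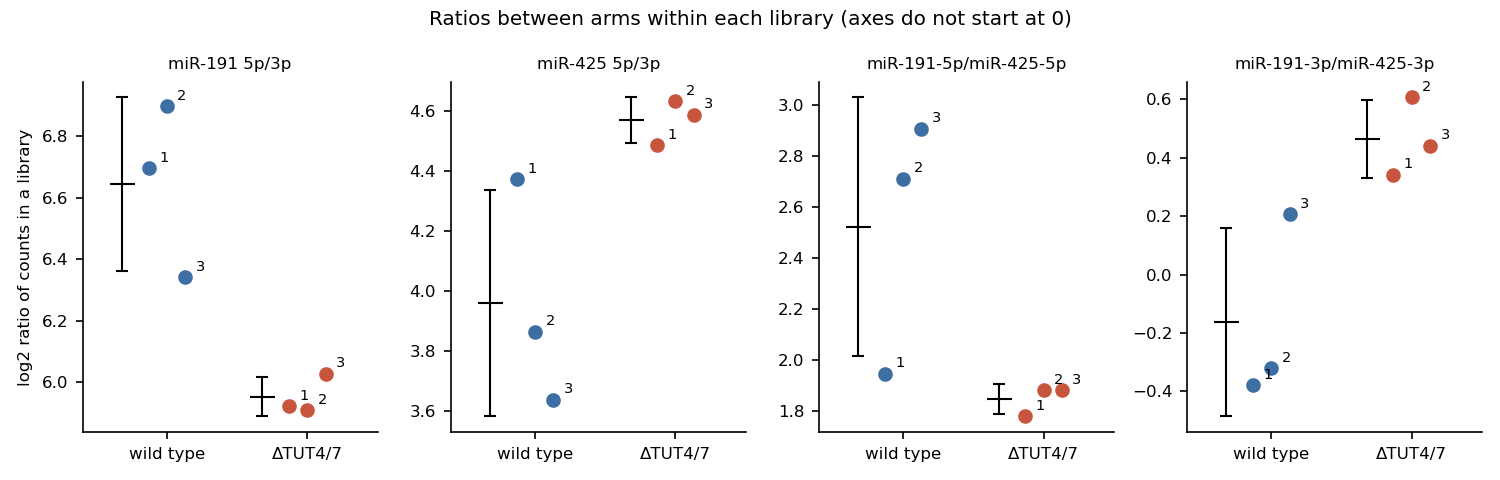
log2 ratios of counts within each library (vertical axes not from 0) for the arms of each hairpin and for the 5p and the 3p arms between hairpins, by strain, with replicate numbers and the mean and SD as bars. The strains do not overlap in any of the 4 panels, which share arms and are not independent. The share of all hairpins without overlap in such ratios was not counted. Wild type replicate 1 is the wild type library nearest to ΔTUT4/7 in the panels that hold miR-425-5p.

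Across the 6 libraries the 4 arms did not share a profile. Pearson's r of log2(CPM + 1) between pairs of arms, a description over libraries that fall into 2 strains, ran from -0.73 (miR-191-3p with miR-425-3p) to 0.41 (miR-191-3p with miR-425-5p). It was -0.49 between the arms of miR-191 and 0.074 between those of miR-425. Among 387 miRNAs above 10 CPM, the profile of miR-191-5p was most like those of miR-532-3p (r = 0.84), miR-128-3p (0.82) and miR-769-3p (0.80). That of miR-191-3p was most like miR-101-2-5p (0.99), miR-4521 (0.99) and miR-196b-3p (0.98), each low in wild type replicates 1 and 2, higher in replicate 3 and highest in the ΔTUT4/7 libraries. That of miR-425-5p was most like miR-378a-3p (0.98), miR-181c-5p (0.97) and miR-548e-5p (0.97), which had their highest wild type value in replicate 1, as miR-425-5p did. miR-378a-3p, for example, was at 668, 639 and 640 CPM in ΔTUT4/7 replicates 1, 2 and 3 and at 580, 512 and 422 CPM in wild type replicates 1, 2 and 3. That of miR-425-3p was most like miR-454-5p (0.90), miR-2277-5p (0.88) and miR-1278 (0.88). These were picked as the highest of many correlations over the same libraries.

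Among the 79 miRNAs with a mean above 1000 CPM, of which 57.0% passed the test in either direction, miR-191-5p was one of the steadiest. Its coefficient of variation over the 6 libraries was 7.88%, the 5th lowest, where the median was 24.7%, and its fold change was the 16th smallest. Within strains it was less distinct, being 23rd lowest in wild type (8.64%) and 42nd lowest in ΔTUT4/7 libraries (5.12%). The lowest coefficients were those of miR-192-5p (4.56%), miR-185-5p (6.74%) and miR-218-5p (7.12%), though miR-218-5p was lower at a log2 fold change of -0.29 that passed with totals that omit miR-16-5p. The smallest log2 fold changes were those of miR-342-3p (-0.0033), miR-10a-3p (0.025) and miR-17-5p (-0.028). For miR-17-5p this rested on wild type replicate 3, without which its log2 fold change was 0.74 and passed. miR-425-5p stood in the middle by both measures, 41st by its coefficient of variation (25.1%) and 40th by its fold change. Within strains it was 4th lowest in ΔTUT4/7 libraries, where the median was 4.99%, and 71st of 79 in wild type libraries, where the median was 12.7%.

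**Figure D5:**
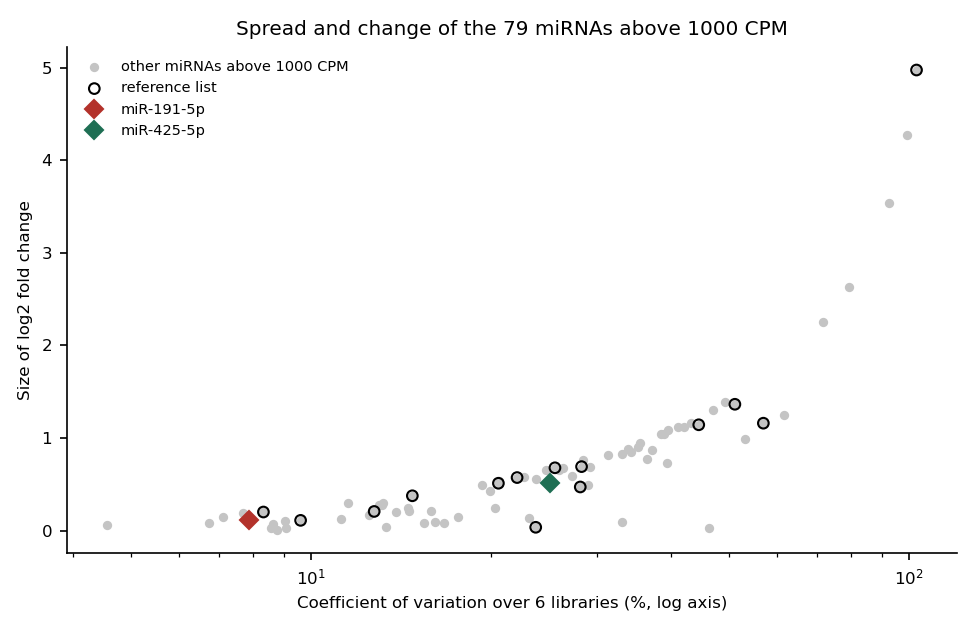
Size of the log2 fold change against the coefficient of variation over 6 libraries (log axis) of the 79 miRNAs above 1000 CPM, with the reference list circled. miR-191-5p (7.88%, 0.12) lies at the lower left among the steadiest, and miR-425-5p (25.1%, 0.52) near the middle.

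miR-191-5p was also set beside 19 other miRNAs that are commonly used as references for miRNA measurements. Of these, 6 were higher in ΔTUT4/7 cells, 5 were lower and 8 did not pass (edgeR, adjusted p under 0.05), and 4 and 2 passed the 2-fold limit upward and downward. Over all tested miRNAs, 23.2% were higher and 21.9% lower (45.2% in all), and 16.5% and 13.6% passed the 2-fold limit. The median size of their log2 fold change was 0.57, against 0.77 over all tested miRNAs. Over the 79 miRNAs above 1000 CPM, where most of these references lie, it was 0.515, and 57.0% passed in either direction. Beside those, the references as a list were not steadier. The smallest were 0.0076 for miR-151a-3p, at only 19.6 CPM, -0.037 for miR-423-3p and -0.11 for miR-93-5p, a member of the miR-17 seed family at 41122 CPM. The value for miR-93-5p was -0.21 and passed without wild type replicate 3. The largest were 1.21 for miR-320a-3p, at 7.60 CPM, -1.36 for miR-24-3p, and 4.97 for let-7i-5p, a group II let-7 whose mean rose from 1740 ± 124 to 54673 ± 1817 CPM (SD, n = 3 each).

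Of the 9 other arms encoded within 5 Mb of MIR191, 7 were higher in ΔTUT4/7 cells, 1 was lower and 1 did not pass, and 5 and 1 passed the 2-fold limit upward and downward. Over all tested miRNAs the shares were 23.2% higher and 21.9% lower, and 16.5% and 13.6% at the 2-fold limit. Those above 10 CPM were let-7g-3p (log2 fold change 2.89) and let-7g-5p (2.63) of the let-7 tumour suppressor family, miR-1226-3p (1.17), miR-138-5p (0.71) and miR-4787-3p (0.92). The libraries of the strains overlapped for miR-4787-3p, and its call was lost without ΔTUT4/7 replicate 2 (0.80) or 3 (0.73), without wild type replicate 1 (0.73) or 2 (0.93), with totals that omit miR-16-5p (0.77) and with the GC trend removed (0.15). Both arms of let-7g were higher together, at 7.43-fold (3p) and 6.19-fold (5p). The 9 arms are not 9 separate hairpins, since both arms of let-7g, both of miR-1226 and both of MIR138-1 (miR-138-5p and miR-138-1-3p) are counted. The arms below 10 CPM had means of 4.33 (miR-4443, the lower one), 2.24 (miR-1226-5p), 1.85 (miR-138-1-3p) and 0.896 CPM (miR-4793-3p). The arm that did not pass was miR-138-1-3p (log2 fold change 0.29, edgeR, adjusted p = 0.722).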

How the data were processed

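Per the study's methods and the labels, RNA was extracted with the miRneasy kit, libraries were made with the QIAseq miRNA kit, and reads were cut to 18 nt and mapped to hg38 (Bowtie 1.0.0, Partek 10.0.22, from the submitters' processing notes). For unique molecular identifiers, no use is stated in the sources read. The deposited values are estimated counts that the authors made with Partek's expectation-maximization step, written as whole numbers, with values of miR-16-5p at or above 1000000 written to 3 digits. The authors' comparison table, with p-values, FDR, ratios, fold changes and strain means, was not used.

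Libraries were grouped by their labels. CPM was taken over each library's total. miRNAs with a highest count above 7, the study's limit, were tested with edgeR 4.0.16 (quasi-likelihood test, normalization factors of 1) in R 4.3.3, with Benjamini-Hochberg adjustment. Log2 ratios of counts with 0.5 added were tested with limma 3.58.1. Both were tested on simulated data. Structures were predicted with RNAfold 2.7.2. The same-numbered libraries of the strains did not deviate together (r = -0.17, -0.16 and -0.25 over 391 miRNAs), and were not paired. The alternatives were TMM and RLE factors, totals that omit let-7 and miR-98, or miR-16-5p, scaling to miR-191-5p, DESeq2 1.42.0, limma on log2(CPM + 1), no filter and filterByExpr, removal of the GC trend (lowess, span 0.5), a replicate block, a pseudocount of 5, limma without trend and each library left out.

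The miRNAs named are the 4 arms, reference miRNAs (the 3 smallest and 3 largest changes), arms within 5 Mb, the 3 most similar profiles of each arm, and the 3 steadiest miRNAs above 1000 CPM by each measure. The members and lists were chosen with earlier results of these data known. DALRD3 mRNA, precursors and uridylated ends were not analysed here.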

Additional observations from a re-analysis of the deposited data

How the results depend on the processing

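The 2 calls among the 4 arms are close to the threshold. Exact counting intervals of the 3 wild type libraries of miR-425-5p did not overlap, whereas those of its ΔTUT4/7 libraries and of several miR-191-3p libraries did. Of 17 alternatives each, miR-191-3p kept its call in 12 and miR-425-5p in 10, and both were higher in all. miR-191-5p passed in none of 16 and miR-425-3p in none of 17. Leaving out let-7 and miR-98 from the totals moved the median log2 fold change of all miRNAs from 0.013 to 0.23, omitting miR-16-5p moved it to -0.13 and scaling to miR-191-5p to 0.13. The split of 192 higher to 181 lower calls became 258 to 136 in the first case and 165 to 219 in the second. With let-7 and miR-98 out of the totals, the log2 fold change was 0.10 for miR-191-5p, 0.17 for miR-425-3p, 0.19 for miR-423-3p, 0.11 for miR-93-5p, 0.22 for miR-342-3p, 0.19 for miR-17-5p and 0.073 for miR-218-5p. With totals without miR-16-5p, it was -0.26 for miR-191-5p, 0.43 for miR-191-3p and 0.38 for miR-425-5p. Under the same totals it was -0.13 for miR-151a-3p, -0.11 for miR-10a-3p, -0.077 for miR-192-5p and -0.064 for miR-185-5p. It was -0.29 for miR-218-5p, which then passed. Scaled to miR-191-5p, it was 0.066 for miR-425-3p, 0.062 for miR-423-3p, 0.11 for miR-342-3p and 0.088 for miR-17-5p. With TMM factors, it was 0.028 for miR-342-3p and 0.019 for miR-17-5p, and with RLE factors -0.041 for miR-151a-3p and -0.018 for miR-10a-3p. DESeq2 gave 0.47 for miR-425-5p, -0.041 for miR-151a-3p and -0.018 for miR-10a-3p, and limma on log2(CPM + 1) gave 0.0019 for miR-342-3p and 0.19 for miR-17-5p. With the GC trend removed, it was 0.34 for miR-191-3p, -0.077 for miR-151a-3p, 0.072 for miR-17-5p and 0.023 for miR-218-5p. The cause of these moves was not tested.

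Same-numbered libraries share only a number, and the replicate block kept the calls of the 4 arms, with log2 fold changes of 0.58 for miR-191-3p and 0.56 for miR-425-5p. It gave 0.0017 for miR-342-3p and 0.21 for miR-17-5p. Under the block, the change of the miR-191 arm ratio stayed at -0.69 and did not pass (limma, adjusted p = 0.124, with 0.00210 to 0.154 over its alternatives), while that of miR-191-5p to miR-425-5p stayed at -0.68 and passed (limma, adjusted p = 0.0136, with 0.00207 to 0.169 over its alternatives). Limma without trend left the miR-191 arm ratio at -0.69 without a call, and a pseudocount of 5 gave a call at -0.68 for miR-191-5p to miR-425-5p. No library correlated best with its own number.

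With each library left out in turn, the log2 fold change ran from 0.48 to 0.72 for miR-191-3p (edgeR, adjusted p = 0.00136 to 0.0856) and from 0.33 to 0.78 for miR-425-5p (edgeR, adjusted p = 0.00132 to 0.117). The change of the arm ratio ran from -0.84 to -0.57 for miR-191 and from 0.45 to 0.82 for miR-425, and that of miR-191-5p to miR-425-5p from -0.96 to -0.48. It ran from -0.11 to 0.16 for miR-151a-3p, from -0.25 to 0.15 for miR-423-3p, from -0.10 to 0.049 for miR-342-3p, from -0.052 to 0.10 for miR-10a-3p and from -0.32 to 0.74 for miR-17-5p.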
